A study of Mus musculus with 6 samples.

Results

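The genes described here are 9 regulators and components of the ERK pathway, namely Dusp4, Dusp5, Dusp6, Dusp8, Spry1, Spry2, Spred1, Spred2 and Mapk3. They were chosen by name, each was found once among the 26110 genes listed, and all 9 were high enough to test, which required the 6 libraries to average 10 or more. In ERK signalling, a receptor tyrosine kinase activates the small GTPase RAS, which activates the kinases RAF, MEK and ERK in turn. Active ERK induces the transcription of its own inhibitors. Dual-specificity phosphatases (DUSPs) remove the activating phosphates from MAP kinases, whereas Sprouty and SPRED proteins act further upstream, between the receptor and RAF. In macrophages the pathway operates downstream of the CSF1 receptor and of toll-like receptors. The label "ERK pathway feedback regulators" fits 2 of the 9 only loosely, because DUSP8 acts mainly on the MAP kinases JNK and p38, and Mapk3 encodes ERK1, the kinase itself.

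The samples for bulk RNA-seq were cells with high MHC class II, sorted by the chemokine receptor CX3CR1 from the muscularis externa (ME), the muscle layer of the small bowel wall. There were 3 CX3CR1- libraries (Sample_2041, Sample_2043 and Sample_2047) and 3 CX3CR1+ libraries (Sample_2040, Sample_2044 and Sample_2046). All mice were female and untreated, on a C57BL/6 background, and carried GFP in place of 1 Cx3cr1 allele (CX3CR1+/GFP), which reports CX3CR1 in the sort. Age was not given in the sources used here. The sample labels call both populations dendritic cells, whereas the study speaks of macrophages, and its names are kept here. ME of several mice was pooled per group, and no label says that each library had its own pool, so p-values measure only the spread between libraries. Values are signal normalized between libraries by the authors, without correction for transcript length. The CX3CR1- Sample_2041, Sample_2043 and Sample_2047 held about 11927322, 6517531 and 11331837 reads, and the CX3CR1+ Sample_2040, Sample_2044 and Sample_2046 about 17616748, 10014168 and 5346391. Mitochondrial genes took 51.7 ± 3.76% of the normalized total in CX3CR1- and 19.6 ± 1.55% in CX3CR1+ (SD, n = 3).

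The sort was visible in the RNA. Cx3cr1 measured 23.2, 18.9 and 28.5 in CX3CR1- against 371, 380.4 and 346.5 in CX3CR1+. The 4 MHC class II genes of the gate were abundant in both populations, with a summed value of 100306 ± 10382 in CX3CR1- and 179762 ± 6254 in CX3CR1+ (SD, n = 3). The 10 macrophage markers were all called lower in CX3CR1-. The 10 markers of conventional dendritic cells were higher in every CX3CR1- library, and 9 of them were called. At the protein level, the study's flow cytometry found the dendritic cell markers CD103 and CD11c on very few CX3CR1- cells, while most carried CD11b. The study judged contamination by dendritic cells to be very low and probably negligible.

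Sample_2043 held more low genes than the other two CX3CR1- libraries. In it, 991 of 17812 tested genes (5.56%) lay at no more than 1/4 of the mean of the other two, against 670 genes (3.76%) for Sample_2041 and 578 (3.25%) for Sample_2047. Genes at 4 times that mean or more were no more frequent in it, with 305 against 318 and 352. In the CX3CR1+ group, the same count ran from 238 genes in Sample_2040 to 481 in Sample_2046, and Sample_2046 was also the shallowest. Sample_2043 was the shallowest of its group. Results for the 9 genes that rest on it are given with and without it.

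Between the populations, 4 of the 9 genes were called differentially expressed: Dusp5 was higher in CX3CR1- cells, and Dusp6, Dusp8 and Spred1 were lower. Calls required a log2 fold change of 1 or more in either direction together with an adjusted p no larger than 0.05 (limma on log2(value + 1), Benjamini-Hochberg over all tested genes). The call rate over all 17812 tested genes was 20.4%, with 12.2% called higher and 8.15% called lower in CX3CR1-. The split depended on scaling: 2177 genes were called higher and 1451 lower, but 1716 and 1674 after quantile normalization and 2520 and 1113 with equal totals outside the mitochondrial genome. The median log2 fold change of the 9 genes was -0.01, and that of all tested genes was -0.00. The median of the 9 was that of Mapk3 and turned positive under 2 other scalings (0.12 and 0.17). In the same 4 genes the values of the populations did not overlap, which was so in 40.0% of all tested genes. A positive log2 fold change means higher in CX3CR1- throughout, and the scale log2(value + 1) understates the change of genes with low values. An exact two-sided permutation test of 3 libraries against 3 cannot give a p below 0.1.

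**Figure D1:**
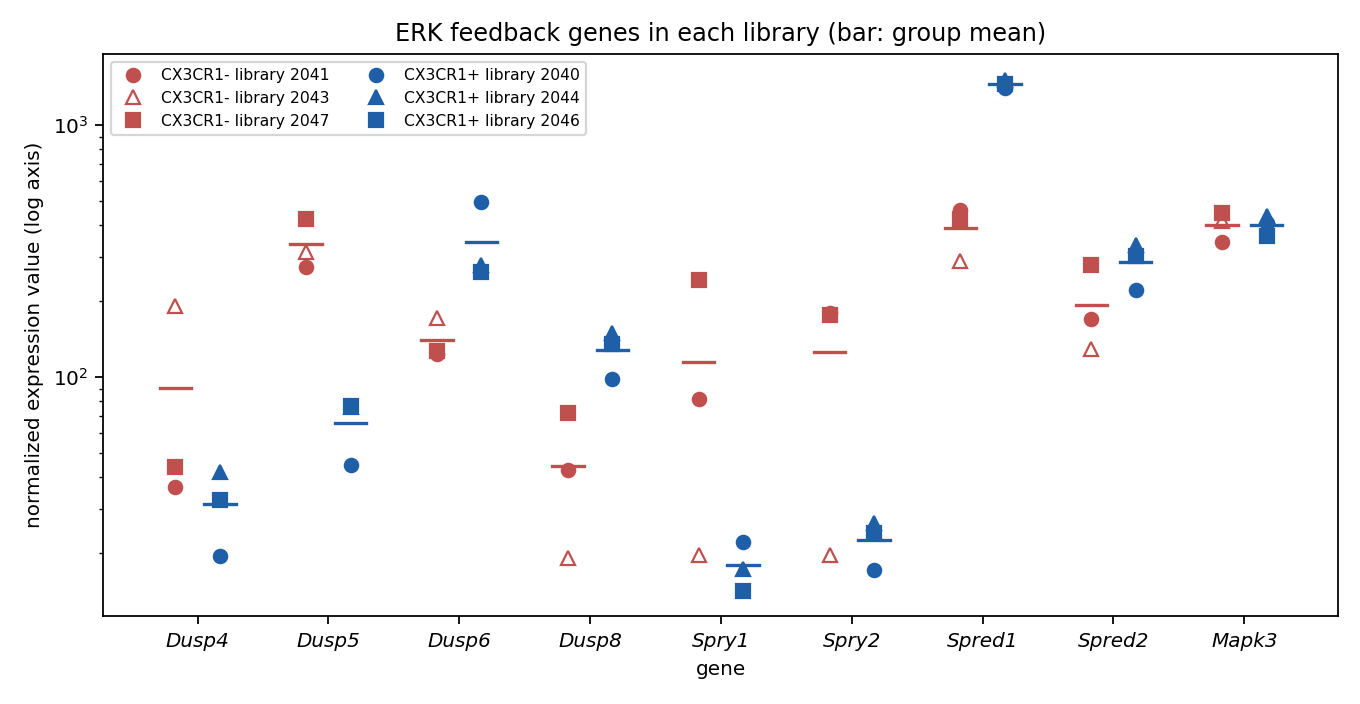
Normalized expression value (log axis) of the 9 genes in each of the 6 libraries, CX3CR1- in red and CX3CR1+ in blue, with a bar at each group mean; the open triangle is Sample_2043. Dusp5 is higher in every CX3CR1- library, Dusp6, Dusp8 and Spred1 are lower, and Sample_2043 lies apart from Sample_2041 and Sample_2047 in Dusp4, Spry1 and Spry2.

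Dusp5 encodes a nuclear phosphatase that is selective for ERK. Its values in Sample_2041, Sample_2043 and Sample_2047 (CX3CR1-) were 274.5, 313 and 422, against 44.9, 76.3 and 76.5 in Sample_2040, Sample_2044 and Sample_2046 (CX3CR1+). Every CX3CR1- library lay above every CX3CR1+ library, and Sample_2043 lay between its group's other two. The mean was 336 ± 76.4 against 65.9 ± 18.2 (SD, n = 3), or 5.11-fold higher in CX3CR1-. Its log2 fold change was 2.35 (95% interval 1.70 to 3.01; adjusted p = 0.000282, limma with Benjamini-Hochberg adjustment; exact permutation p = 0.1). In bulk samples such as these, fewer cells of a type and less RNA per cell cannot be told apart. Dusp5 lies at chr19:53529109-53542431 on the plus strand (GRCm38). Of its 31-base words, 21.2% also occur, on either strand, in transcripts of other genes, most often AC137853.2. The library kit does not mark strand, and reads that hold only shared words cannot be told apart. AC137853.2 was not analysed here.

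Dusp6 encodes the cytoplasmic phosphatase of ERK, a classical readout of ERK activity. Its values were 123, 171 and 126 in CX3CR1- and 494, 277.5 and 261 in CX3CR1+. The populations did not overlap, although Sample_2040 stood well above the other two CX3CR1+ libraries. The mean was 140.2 ± 27.1 in CX3CR1- and 344 ± 130.1 in CX3CR1+ (SD, n = 3), which is 2.46-fold higher in CX3CR1+. This gave a log2 fold change of -1.24 (95% interval -1.89 to -0.60; adjusted p = 0.0104, limma with Benjamini-Hochberg adjustment; exact permutation p = 0.1). Without Sample_2040 it was -0.95, inside the fold threshold, with an adjusted p of 0.0488 (limma, Benjamini-Hochberg), whereas the adjusted p over all alternatives ran from 0.00705 to 0.0488. Dusp6 lies at chr10:99263231-99267489 on the plus strand and shares no 31-base word with another annotated transcript.

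Dusp8 encodes a phosphatase of JNK and p38. It measured 42.6, 19.1 and 71.7 in CX3CR1- libraries and 98.1, 150.0 and 135 in CX3CR1+ libraries. All CX3CR1- values lay below all CX3CR1+ values, with the lowest in Sample_2043, and without that library the log2 fold change was -1.17. The mean was 44.5 ± 26.3 against 128 ± 26.7 (SD, n = 3), 2.87-fold higher in CX3CR1+. Its log2 fold change was -1.67 (95% interval -2.66 to -0.67; adjusted p = 0.0211, limma with Benjamini-Hochberg adjustment; exact permutation p = 0.1). The call was lost without Sample_2044 (log2 fold change -1.54, adjusted p = 0.0876 by limma with Benjamini-Hochberg), without Sample_2046 (-1.61, adjusted p = 0.0783) and without the intensity trend of the variance (adjusted p = 0.0587). Over all alternatives its adjusted p ran from 0.00706 to 0.0876. Dusp8 lies at chr7:142079490-142095843 on the minus strand.

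Dusp4 encodes a nuclear phosphatase of ERK, JNK and p38 that is itself induced by ERK. Its values were 36.5, 191 and 43.9 in CX3CR1- and 19.4, 41.8 and 32.6 in CX3CR1+. The populations overlapped, and Sample_2043 alone carried the high CX3CR1- mean of 90.6 ± 87.3, against 31.3 ± 11.3 in CX3CR1+ (SD, n = 3). In Sample_2043 Dusp4 was 4.76 times the mean of Sample_2041 and Sample_2047. Over all libraries the log2 fold change was 1.15 (95% interval -0.17 to 2.48; adjusted p = 0.197, limma with Benjamini-Hochberg adjustment; exact permutation p = 0.2), and without Sample_2043 it was 0.41 (adjusted p = 0.530). Dusp4 was thus not called either way. It lies at chr8:34807297-34819894 on the plus strand.

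Per kb of the longest annotated transcript, the makeup of the 4 phosphatase transcripts differed between the populations. Dusp5 took 62.7, 48.4 and 69.1% of their summed level per kb in CX3CR1- libraries and 8.16, 17.5 and 18.8% in CX3CR1+ libraries. Dusp6 took 24.8, 23.4 and 18.3% in CX3CR1- and 79.5, 56.2 and 56.9% in CX3CR1+. On this length basis, Dusp5 was therefore the leading transcript of the 4 in each CX3CR1- library and Dusp6 in each CX3CR1+ library. Dusp6 has 4 annotated transcripts and Dusp8 has 2, and which of them was expressed was not determined. The summed level per kb was 228 ± 45.1 in CX3CR1- and 188 ± 30.6 in CX3CR1+ (SD, n = 3), a difference within the spread of the libraries.

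Spry1 and Spry2 encode Sprouty proteins, inhibitors of signalling from receptor tyrosine kinases to RAS and RAF that growth factors induce. Both were high in the same CX3CR1- libraries and low in Sample_2043. Spry1 measured 81.4, 19.7 and 242 in CX3CR1- Sample_2041, Sample_2043 and Sample_2047 and 22.2, 17.2 and 14.2 in CX3CR1+ Sample_2040, Sample_2044 and Sample_2046. In Sample_2043 it lay within the CX3CR1+ range, whereas Sample_2041 and Sample_2047 lay above all CX3CR1+ libraries. The mean was 114.5 ± 115.0 against 17.9 ± 4.06 (SD, n = 3). The log2 fold change was 2.005 (95% interval 0.37 to 3.64), but the adjusted p was 0.0759 (limma, Benjamini-Hochberg) and the exact permutation p was 0.2, so that Spry1 was not called. Without Sample_2043 it was called, where the log2 fold change was 2.93 and the adjusted p 0.00305 (limma, Benjamini-Hochberg). Without Sample_2047, its highest library, the log2 fold change was 1.15 (adjusted p = 0.226, limma with Benjamini-Hochberg).

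Spry2 showed the same split. Its values were 179.5, 19.7 and 176.5 in CX3CR1- and 17.1, 26.2 and 24.1 in CX3CR1+. Sample_2041 and Sample_2047 were nearly equal, and their mean was 9.05 times the value of Sample_2043. The group mean was 125 ± 91.4 against 22.5 ± 4.77 (SD, n = 3). Spry2 was not called with all libraries (log2 fold change 1.91, 95% interval 0.28 to 3.54; adjusted p = 0.0871, limma with Benjamini-Hochberg adjustment; exact permutation p = 0.3). Without Sample_2043 the log2 fold change was 2.95 and the adjusted p 0.000421 (limma, Benjamini-Hochberg). Weighting the libraries by their quality also moved both genes past the threshold, with adjusted p-values of 0.0291 for Spry1 and 0.0271 for Spry2. Over all alternatives the adjusted p ran from 0.00305 to 0.226 for Spry1 and from 0.000421 to 0.259 for Spry2.

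Spry4, a further Sprouty gene, had values of 211, 51.9 and 268 in CX3CR1- and 51.3, 38.6 and 19.8 in CX3CR1+. It was lowest in Sample_2043 within its group as well, but still above the CX3CR1+ libraries, and it was called higher in CX3CR1- (log2 fold change 2.04, adjusted p = 0.0290, limma with Benjamini-Hochberg adjustment). That call was lost without Sample_2041, Sample_2047, Sample_2044 or Sample_2046, where the log2 fold change lay between 1.59 and 2.13 and the adjusted p between 0.0663 and 0.116, and also after quantile normalization and without the intensity trend. Over all alternatives its adjusted p ran from 0.00163 to 0.116. Spry3 was 0 throughout CX3CR1+ and 30.3, 19.7 and 0.997 in CX3CR1-. With all libraries it was too low to pass the filter. With no filter on low values it was tested and called higher in CX3CR1-.

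The spread of the Sprouty genes within CX3CR1- was among the widest measured. The SD of log2 values over the 3 CX3CR1- libraries was 1.78 for Spry1 and 1.80 for Spry2, against a median of 0.47 over all tested genes. Larger SDs were found in 4.25% of tested genes for Spry1 and in 4.12% for Spry2. In CX3CR1+ both genes varied by 0.31, near the median of 0.30. Within CX3CR1-, Dusp4 followed with an SD of 1.29 and Dusp8 with 0.93, whereas Dusp5, Dusp6, Spred1 and Mapk3 varied less there than the median gene. Within CX3CR1+, Dusp4 (0.54), Dusp6 (0.51) and Dusp5 (0.44) varied most of the 9 genes, each more than the median. Spry1 lies at chr3:37639947-37644598. Of its 31-base words, 23.1% also occur, on either strand, in transcripts of other genes, most often Gm42922. Reads that hold only these shared words could not be told apart, and Gm42922 was not analysed here. Spry2 lies at chr14:105891947-105896819 on the minus strand.

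Markers of several stromal cell types were also lower in Sample_2043 than in the other two CX3CR1- libraries, as sums by less than Spry1 and Spry2. The 7 fibroblast markers summed to 9409, 5258 and 16011 in Sample_2041, Sample_2043 and Sample_2047 and to 364, 303 and 209 in the CX3CR1+ libraries. All 7 were lowest in Sample_2043 within CX3CR1-, and their most abundant gene, here and below by the mean over all 6 libraries, was Dcn. The sum of the 2 markers of interstitial cells of Cajal, the pacemaker cells of the gut, was 516, 162 and 734 in CX3CR1- and 79.2, 71.5 and 77.9 in CX3CR1+, with Kit as the more abundant in CX3CR1- but not in CX3CR1+. The 7 markers of enteric neurons and glia summed to 498, 146 and 367 in CX3CR1- and to 99.0, 91.3 and 88.4 in CX3CR1+. The 6 smooth muscle markers, led by Acta2 though not in CX3CR1- alone, summed to 2675, 918 and 2542 in CX3CR1- and to 1954, 2745 and 2254 in CX3CR1+. Thus smooth muscle markers were low in Sample_2043, and none was called between the populations (median log2 fold change -0.32). The sum of the 5 markers of B and plasma cells, most of it Jchain, was highest in Sample_2043, with 1388, 3586 and 1636 in CX3CR1-, although 1 of the 5 was lowest there. Dusp4, like this sum, was highest in Sample_2043. So were, within CX3CR1-, the sums of the eosinophil, macrophage, conventional dendritic cell and MHC class II markers. The 3 mesothelial markers were all lowest in Sample_2043 within CX3CR1-, and their sum in the other two averaged 6.39 times its value there. Single markers of these lists were listed at 0 in it. The part of these cell types in the values of Spry1, Spry2, Spry4 and Dusp4 was not tested.

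**Figure D2:**
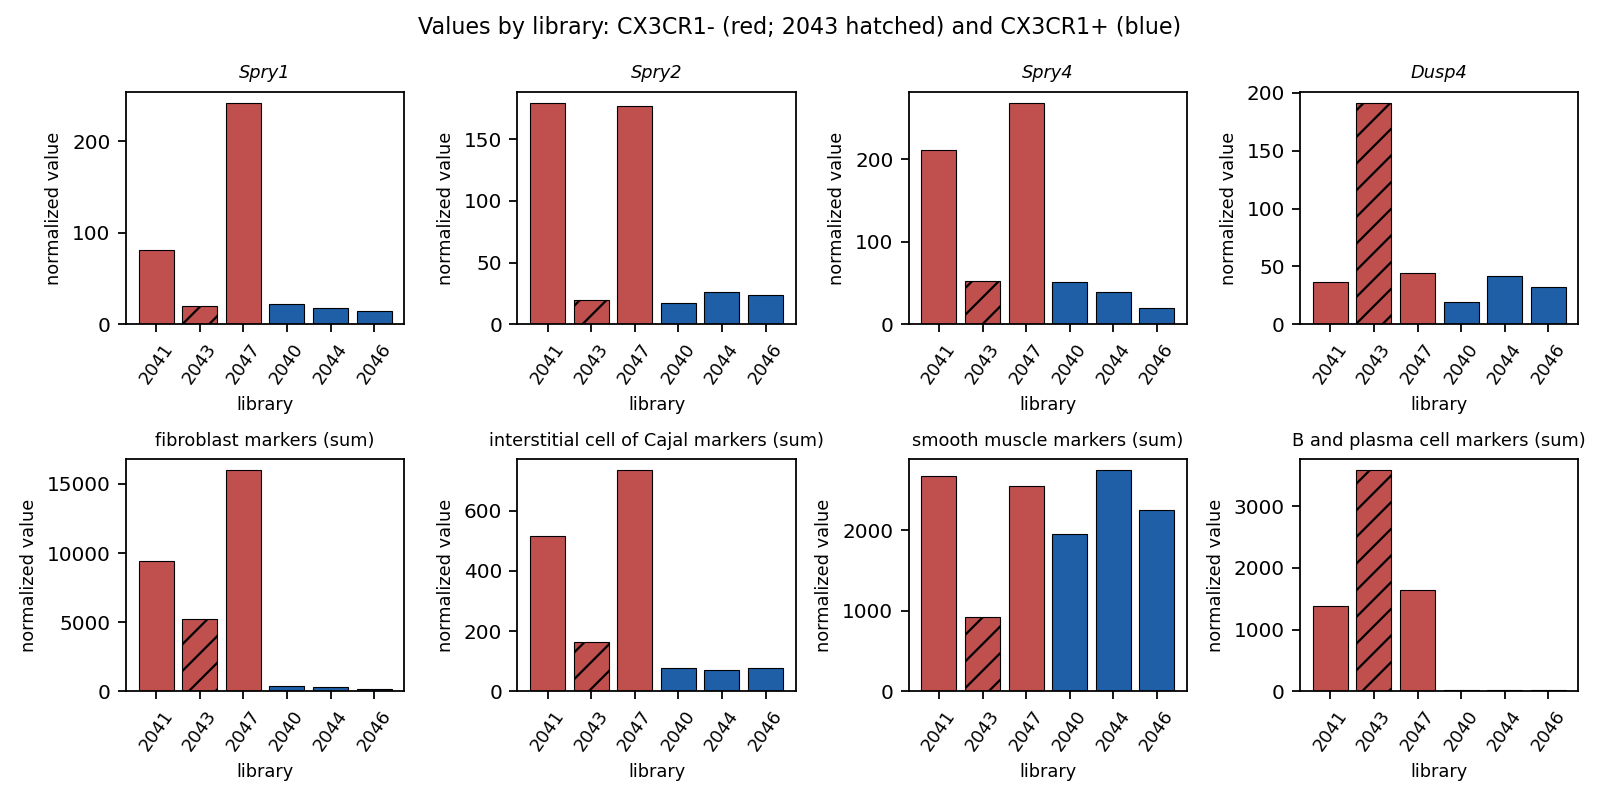
Normalized values of Spry1, Spry2, Spry4 and Dusp4 and summed normalized values of 4 lists of cell type markers in each library (linear axes from 0), CX3CR1- in red with Sample_2043 hatched and CX3CR1+ in blue. The 3 Sprouty genes and the fibroblast, interstitial cell of Cajal and smooth muscle markers are lowest within CX3CR1- in Sample_2043, and Dusp4 and the sum of the B and plasma cell markers are highest there.

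Spred1 encodes a membrane-bound inhibitor of RAS activation that binds the RAS GTPase-activating protein neurofibromin. It had the lowest adjusted p of the 9 genes. Its values were 462, 289 and 422 in CX3CR1- and 1400, 1514 and 1457 in CX3CR1+. The highest CX3CR1- library stood far below the lowest CX3CR1+ library. The mean was 391 ± 90.6 against 1457 ± 56.8 (SD, n = 3), 3.73-fold higher in CX3CR1+. Its log2 fold change was -1.92 (95% interval -2.38 to -1.47; adjusted p = 0.000101, limma with Benjamini-Hochberg adjustment; exact permutation p = 0.1). Spred1 lies at chr2:117121374-117182279 on the plus strand.

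Spred2, the related SPRED gene, measured 171, 129 and 278 in CX3CR1- and 220.5, 334 and 301 in CX3CR1+. The populations overlapped through Sample_2047, and the means were 193 ± 77.0 and 285 ± 58.6 (SD, n = 3). The log2 fold change was -0.62 (95% interval -1.30 to 0.06; adjusted p = 0.180, limma with Benjamini-Hochberg adjustment; exact permutation p = 0.2). It was not called, and without Sample_2043 the log2 fold change was -0.37. Without Sample_2047 it was -0.92 (adjusted p = 0.0377, limma with Benjamini-Hochberg), inside the fold threshold. Spred3 was not called either (log2 fold change 0.23, adjusted p = 0.782, limma with Benjamini-Hochberg adjustment). Spred2 lies at chr11:19924375-20024026 on the plus strand.

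Per kb, the balance between Spred1 and the Sprouty genes differed. Of the summed level per kb of Spry1, Spry2, Spred1 and Spred2, Spred1 took 78.0, 72.8 and 74.2% in CX3CR1+ against 33.3, 51.3 and 23.0% in CX3CR1-. Spry1 and Spry2 took at most 2.68% and 3.64% in any CX3CR1+ library. In CX3CR1- Sample_2041, Sample_2043 and Sample_2047, Spry1 took 12.7, 7.58 and 28.7% and Spry2 took 37.3, 10.1 and 27.8%. Even in Sample_2043 both shares exceeded those in CX3CR1+. There, however, the summed level per kb was only 93.5, against 230.5 and 305 in Sample_2041 and Sample_2047 and 324 ± 23.7 in CX3CR1+ (SD, n = 3).

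Mapk3 encodes ERK1. It measured 344.5, 415 and 447 in CX3CR1- and 408.5, 434 and 364 in CX3CR1+, with overlapping values. The means were 402 ± 52.5 and 402 ± 35.5 (SD, n = 3). The log2 fold change was -0.01 with a 95% interval of -0.44 to 0.43 (adjusted p = 0.988, limma with Benjamini-Hochberg adjustment; exact permutation p = 1). The interval excludes a change by the fold threshold in either direction. Mapk3 lies at chr7:126759601-126765819 on the plus strand.

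**Figure D3:**
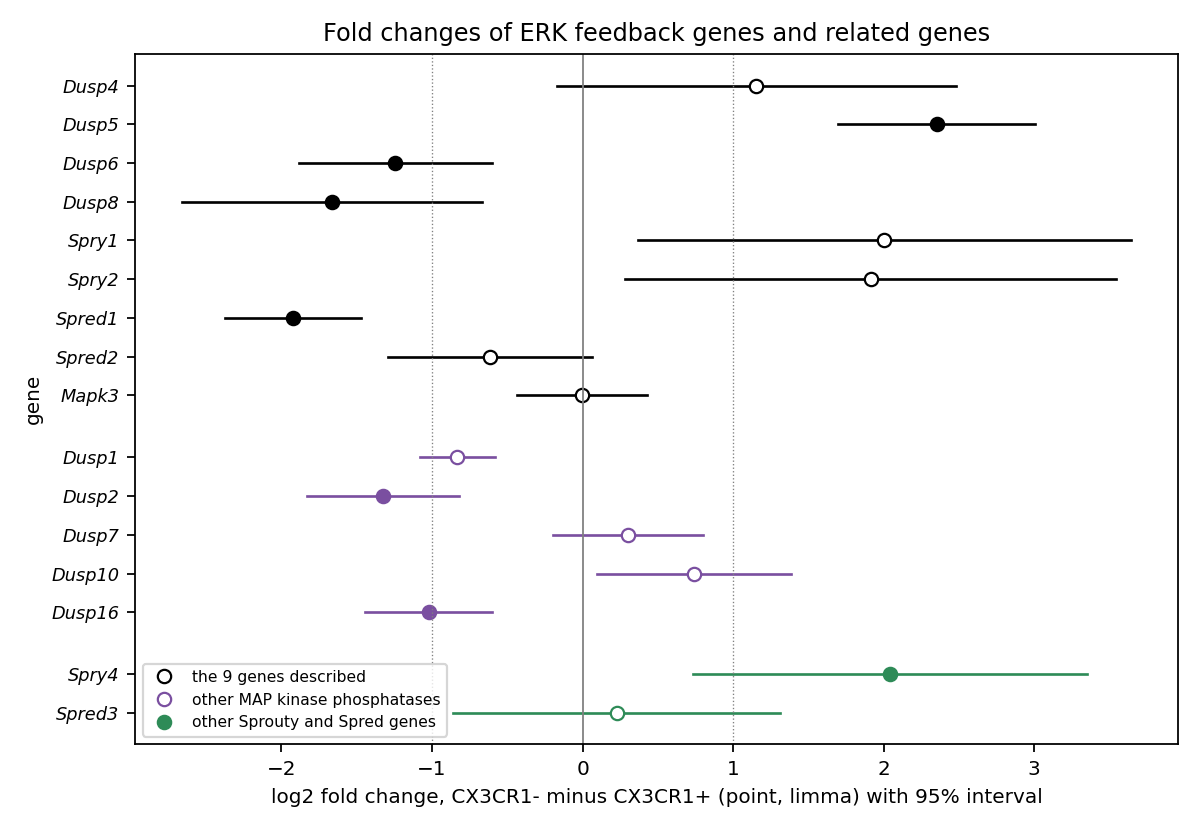
log2 fold change (CX3CR1- minus CX3CR1+) with its 95% interval for the 9 genes and for 2 lists of related genes; filled points are called, open points are not, and dotted lines mark the fold threshold of 1. Of the called genes, Dusp5 and Spry4 lie to the right and Dusp6, Dusp8, Spred1, Dusp2 and Dusp16 to the left; Spry1, Spry2 and Dusp4 lie to the right without being called.

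Levels of different genes were compared per kb of the longest transcript. In CX3CR1- the order was Mapk3 (223 ± 29.2 per kb), Dusp5 (136 ± 30.9), Spred1 (65.0 ± 15.1), Spry2 (60.0 ± 43.8), Dusp6 (50.1 ± 9.68), Spred2 (43.3 ± 17.3), Spry1 (41.3 ± 41.5), Dusp4 (33.1 ± 31.9) and Dusp8 (9.26 ± 5.48; all SD, n = 3). Mapk3 and Dusp5 were each separated from the next gene, whereas the ranges of all neighbours from Spred1 to Dusp8 overlapped. In CX3CR1+ the order was Spred1 (242 ± 9.44), Mapk3 (224 ± 19.7), Dusp6 (123 ± 46.5), Spred2 (64.1 ± 13.2), Dusp5 (26.6 ± 7.36), Dusp8 (26.6 ± 5.55), Dusp4 (11.4 ± 4.11), Spry2 (10.8 ± 2.29) and Spry1 (6.44 ± 1.46). Here the neighbours Spred1 and Mapk3, Dusp5 and Dusp8, and Dusp4 and Spry2 overlapped, and the other neighbours did not. Spred1 thus stood in place 1 in CX3CR1+ and in place 3 in CX3CR1-, and Dusp5 in place 2 in CX3CR1- and in place 5 in CX3CR1+.

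The rest of the pathway was read from 12 lists with 128 genes. Of 116 tested genes, 24 were called higher and 24 lower in CX3CR1-, with a median log2 fold change of -0.17 against -0.00 for all tested genes. The calls made up 41.4% of these genes, against 20.4% of all tested genes, and 16 of them were receptor tyrosine kinases. Of these 48 calls, 36 held in all alternatives that tested the gene, and 12 were lost in at least 1. No call changed its direction.

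The other MAP kinase phosphatases did not move as 1 group. Of 5 tested, 2 were called lower and 0 higher, with a median log2 fold change of -0.83. Dusp2, a nuclear phosphatase of activated leukocytes, measured 276 ± 57.4 in CX3CR1- and 691 ± 120.5 in CX3CR1+ (log2 fold change -1.33, adjusted p = 0.00190, limma with Benjamini-Hochberg adjustment). Dusp16, which acts on JNK and p38, measured 414 ± 29.2 and 849.9 ± 139 (log2 fold change -1.02), and fell inside the fold threshold without Sample_2041, Sample_2044 or Sample_2046 (-0.96 to -0.94) and under 2 of the other scalings. Dusp1, an immediate early gene, had normalized values of 12319.7 ± 267 and 21931 ± 334 (SD, n = 3), and its log2 fold change of -0.83 (adjusted p = 0.000427, limma with Benjamini-Hochberg adjustment) missed the fold threshold. Dusp7 (0.30) and Dusp10 (0.74) had positive log2 fold changes and were not called, and Dusp9 was not analysed here.

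The core of the cascade gave 0 calls among 9 tested genes by limma, with an unadjusted p under 0.05 for 2 of them. The median of the list was -0.18, and it was 0.05 after quantile normalization, so that it had no stable direction.

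Among the genes around the core, some were called. Of 7 scaffolds, Ksr1, which brings RAF, MEK and ERK together, was called higher (2.33-fold, log2 fold change 1.21). That call was lost without Sample_2040 (log2 fold change 1.07, adjusted p = 0.0519 by limma with Benjamini-Hochberg). Pea15a, whose product holds ERK in the cytoplasm, was called lower (616 ± 142 against 1948 ± 166; -1.68), as was the beta-arrestin gene Arrb2 (301 ± 77.9 against 1308 ± 39.2; -2.15). The median of the scaffolds was -0.32, and 0.16 after quantile normalization.

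Of 12 adaptors and RAS exchange factors, 2 were called higher and 3 lower, with a median of -0.18. Called lower were 3 adaptors, with log2 fold changes of -1.28 for Grb2, -1.15 for Shc1 and -1.51 for Gab2. Called higher were the exchange factors Rasgrp4 (1.40) and Rasgrp2 (1.43). Rasgrp2 was not called without Sample_2043, Sample_2040 or Sample_2046, where its log2 fold change lay between 1.21 and 1.28, nor after quantile normalization. Shc1 fell inside the fold threshold under 2 of the other scalings.

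Of 8 RAS GTPase-activating proteins tested, which switch RAS off, 1 was called in each direction. Rasa4, which responds to calcium, measured 62.9 ± 21.8 in CX3CR1- and 612 ± 230.3 in CX3CR1+ (log2 fold change -3.25, adjusted p = 0.000163, limma with Benjamini-Hochberg adjustment). Dab2ip measured 116 ± 53.3 and 16.6 ± 1.95 (log2 fold change 2.64, adjusted p = 0.000813, limma with Benjamini-Hochberg adjustment). The median of the list was -0.18.

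Of 7 other inhibitors, 2 were called higher and 1 lower, with a median of -0.32. Errfi1, a feedback inhibitor of the EGF receptor family, was lower (1233 ± 233 against 2993 ± 456; log2 fold change -1.28) and fell inside the fold threshold after quantile normalization. The adaptor Dok2, which recruits RAS GTPase-activating protein, was higher (5.69-fold, log2 fold change 2.44), and so was the ubiquitin ligase gene Cblb (653 ± 175 against 254 ± 34.7; 1.33).

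Downstream of ERK, 1 of 7 kinases was called in each direction and the median was -0.01. Mknk1, which phosphorylates eIF4E, was lower in CX3CR1- (log2 fold change -1.56). The ribosomal S6 kinase gene Rps6ka2 was higher (1.33), but not called without Sample_2041, Sample_2043, Sample_2040, Sample_2044 or Sample_2046 (1.03 to 1.45), after quantile normalization or without the intensity trend. Of 6 ETS factors that ERK phosphorylates, 2 were called lower and 0 higher, and the median was -0.27. Ets2 measured 582 ± 187 against 3202 ± 426, a log2 fold change of -2.50 (adjusted p = 3.91e-05, limma with Benjamini-Hochberg adjustment). Elk3 had -1.17 and was not called without Sample_2041, Sample_2043, Sample_2040, Sample_2044 or Sample_2046 (-1.24 to -0.74), under 2 other scalings or without the intensity trend.

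Transcripts known to respond to ERK did not move as 1 group. Of 20 tested, 2 were called higher and 5 lower, and the median log2 fold change was -0.40, but 0.05 after quantile normalization. Ier3, an early response gene, was the furthest from 0 (674 ± 225 against 4255 ± 804; log2 fold change -2.69). Ccnd1, which encodes cyclin D1, had -1.51, the ETS factor gene Etv5 had -1.87, and the EGF receptor ligand gene Hbegf had -1.89. Junb had -1.03 and was not called without Sample_2047 (-0.92) or Sample_2044 (-0.98), nor under 2 other scalings, where it came down to -0.55. Junb lies outside the rule for named genes and was named after its values had been seen. Fosl1, a component of AP-1, was higher (41.3 ± 25.8 against 7.95 ± 1.64; log2 fold change 2.07), and lost its call without Sample_2047, Sample_2040 or Sample_2046 (1.61 to 2.01) and after quantile normalization. The ephrin receptor gene Epha4 (1.53) kept its call without Sample_2043 and lost it without any other library (1.07 to 1.72), with no filter, after quantile normalization and without the intensity trend. The other 13 tested genes of the list were not called.

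Receptor tyrosine kinases, the entry to the pathway, were the pathway list with the largest share of calls (84.2%). Of 19 tested genes, 13 were called higher and 3 lower in CX3CR1-, with a median log2 fold change of 2.55, unchanged when genes at or below 3 reads throughout CX3CR1+ were set to their lower bound. With a minimum mean of 50, 7 of 12 were called higher and 3 lower, with a median of 1.86. Both filters use the mean over all 6 libraries, so a gene can pass on the values of 1 population alone. Pdgfra, a receptor of fibroblasts, measured 1398 ± 953 against 27.8 ± 16.3 (SD, n = 3; log2 fold change 5.45), and stood at 1387, 450.0 and 2356 in Sample_2041, Sample_2043 and Sample_2047. Kit measured 349 ± 201 against 31.4 ± 11.7 (log2 fold change 3.30) and was also lowest in Sample_2043. Flt3, a receptor of dendritic cells, measured 203 ± 36.6 against 19.1 ± 0.408 (3.33). The endothelial receptor genes Tek and Flt4 were at least 17.6-fold and 11.5-fold higher, and Erbb2 at least 10.5-fold, because CX3CR1+ libraries lay at or below 3 reads for all 3 genes. Lower in CX3CR1- were the macrophage receptors Csf1r (log2 fold change -2.42), Mertk (-2.51) and Axl (-1.38), of which Mertk and Axl were named after their values had been seen. Fgfr4 was not analysed here.

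Of 14 ligands of these receptors that were tested, 1 was called higher and 4 lower, with a median of -0.30. Hgf (log2 fold change -2.68), Pdgfb (-1.78), Igf1 (-1.66) and Pdgfa (-1.30) were lower in CX3CR1-. Fgf1 was higher (2.14), but lost its call without Sample_2041, Sample_2047, Sample_2040 or Sample_2044 (adjusted p 0.0923 to 0.141, limma with Benjamini-Hochberg), after quantile normalization and without the intensity trend, and the populations overlapped.

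Several lists of cell type markers differed between the populations beside the 9 genes. The 11 epithelial markers were all called higher in CX3CR1- and summed to 32719.9, 28763 and 18056 in CX3CR1- and to 54.1, 27.0 and 23.1 in CX3CR1+. Their most abundant gene was Fabp2, and Apoa4 was listed at 0 in every CX3CR1+ library. All 7 fibroblast markers and all 5 B and plasma cell markers were called higher, the latter led by Jchain, with Mzb1 listed at 0 in every CX3CR1+ library and a summed value there of 25.0 ± 4.48 (SD, n = 3). The 10 markers of conventional dendritic cells, led by Irf4 though not in CX3CR1- alone, summed to 4520, 5159 and 4760 in CX3CR1- and to 544, 629.5 and 595.5 in CX3CR1+. The 10 macrophage markers, led by Csf1r, summed to 7501, 9447 and 8697 in CX3CR1- and to 40781, 45887 and 40189 in CX3CR1+. Dusp6, Dusp8 and Spred1 were thus lower where macrophage markers were lower, and Dusp5 was higher where markers of dendritic cells, epithelium, fibroblasts and B cells were higher. The part of these cell types in the 4 calls was not tested. The study lists antibodies to the leukocyte marker CD45, but its description of this sort names only MHC class II and CX3CR1. Its flow cytometry of irradiated mice gated on living CD45+ cells, and its Discussion calls the CX3CR1- population CD45+.

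Of the other lists, 4 of 6 endothelial markers were called higher and 1 lower (sum 1434 ± 216 against 788 ± 80.6, led by Pecam1). Of 2 tested mesothelial markers 1 was called higher (sum 96.3 ± 94.7 against 19.4 ± 10.5, led by Upk3b), and of 6 tested markers of neurons and glia 3 were called higher. Of 3 tested markers of T and NK cells, 1 was called higher and 1 lower (sum 244 ± 32.0 against 617 ± 46.3, led by Cd4), and the 1 eosinophil marker tested, Siglecf, was higher, with Prg2 listed at 0 in every CX3CR1+ library. After quantile normalization the higher calls among T and NK and eosinophil markers were lost. There, and also without the intensity trend, 2 markers of neurons and glia were called higher. Of 2 tested markers of interstitial cells of Cajal, 1 was called higher. Smooth muscle markers gave 0 calls among 6 by limma, and for 0 of them was the unadjusted p under 0.05. Ncr1, Epx and the markers of mast cells and neutrophils were not analysed here. The sort gene Cx3cr1 is also a macrophage marker, and Csf1r, Mertk, Flt3, Kit, Pdgfra and Kdr belong both to a marker list and to the receptor tyrosine kinases.

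For each of the 9 genes, genes with a similar profile were sought among 10042 genes with a mean of at least 50 outside all lists. Similarity was the root mean square difference of log2(value + 1), centred over the 6 libraries. Close to Spred1 was Stard9 (difference 0.12; 443 ± 108 in CX3CR1- against 1526 ± 112 in CX3CR1+). Closest to Dusp5 were Steap4 (0.13; 156 ± 46.7 against 31.7 ± 9.50) and Gm33336 (0.21). Dusp6 was close to Epsti1 (0.18; 143 ± 28.3 against 354 ± 62.5). Dusp8 was closest to Gm15880 (0.16) and Lmln (0.18).

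The Sprouty genes had less close partners, which shared the low value in Sample_2043. Spry1 was closest to Clmp (0.35; 687, 203 and 1327 in Sample_2041, Sample_2043 and Sample_2047). Spry2 was closest to Dzip1 (0.31; 198, 22.0 and 151) and to Wnt5a (0.32; 147, 29.7 and 156), which encodes a secreted WNT ligand. Dusp4 was closest to Map4k2 (0.39; 96.7, 263 and 91.3) and to Mphosph9 (0.41), both highest in Sample_2043. Mapk3 was closest to Tmem14c (0.03) and Ssb (0.05), and Spred2 to Ccnt1 (0.12) and D430013B06Rik (0.14).

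Promoter sequences were compared because the genes moved in different directions. RefSeq (GRCm38.p6) gave the 250 bases before the RefSeq transcription start for 7 of the 9 genes, all but Dusp4 and Mapk3, and 4 motifs were searched on both strands. These were the CArG box, bound by serum response factor, the cAMP response element (CRE, TGACGTCA), the AP-1 site TGANTCA and the ETS core GGAAGT, which do not overlap in the matches given here. Dusp5 held 2 adjacent CArG boxes, from base -82 to -73 and from -72 to -63, where -1 is the last base before the start. A CArG box was found in 1.47% of 32851 promoters of the same length. Dusp8 held 2 CREs, from -107 to -100 and from -63 to -56, and a CRE was found in 1.55% of promoters. The ETS core was found in Dusp5 and Spred2 and in 19.7% of all promoters. RefSeq and GENCODE starts differ for Dusp5, Dusp8, Spred1 and Spred2. The Spred2 match, from -33 to -28, lies within the GENCODE transcript. The Dusp8 window lies within the gene span given above, in an intron of the transcript that starts furthest upstream and before the start of the other. No AP-1 site was found in the 7 promoters, and one was found in 6.75% of all. No CArG box or CRE was found in the promoters of Dusp6, Spry1, Spry2, Spred1 or Spred2. A match describes the letters in this window and no more. The promoters of the 4 called genes are shown 5′ to 3′ on the strand of the gene, with CArG boxes (Dusp5) and CREs (Dusp8) in capitals. The sequence of Dusp5 ends where its annotated GENCODE transcript begins. Its 214 bases thus stop short of the RefSeq start, from which the positions of its motifs are counted. They lie at chr19:53528895-53529108 (Dusp5, plus strand), chr7:142095285-142095534 (Dusp8, minus strand), chr10:99262981-99263230 (Dusp6, plus strand) and chr2:117120821-117121070 (Spred1, plus strand).
Dusp5: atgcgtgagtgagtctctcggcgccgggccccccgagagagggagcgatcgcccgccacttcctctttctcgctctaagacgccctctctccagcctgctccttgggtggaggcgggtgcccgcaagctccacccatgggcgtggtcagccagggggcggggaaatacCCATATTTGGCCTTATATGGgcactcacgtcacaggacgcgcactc
Dusp8: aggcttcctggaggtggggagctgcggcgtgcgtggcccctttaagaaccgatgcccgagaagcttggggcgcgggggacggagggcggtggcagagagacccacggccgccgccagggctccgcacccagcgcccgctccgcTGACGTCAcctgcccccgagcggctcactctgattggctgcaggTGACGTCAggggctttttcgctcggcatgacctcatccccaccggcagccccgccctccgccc
Dusp6: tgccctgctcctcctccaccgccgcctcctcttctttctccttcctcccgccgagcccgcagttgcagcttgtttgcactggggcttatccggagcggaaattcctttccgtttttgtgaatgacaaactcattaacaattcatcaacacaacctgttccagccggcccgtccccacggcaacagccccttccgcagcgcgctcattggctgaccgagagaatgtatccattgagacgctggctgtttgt
Spred1: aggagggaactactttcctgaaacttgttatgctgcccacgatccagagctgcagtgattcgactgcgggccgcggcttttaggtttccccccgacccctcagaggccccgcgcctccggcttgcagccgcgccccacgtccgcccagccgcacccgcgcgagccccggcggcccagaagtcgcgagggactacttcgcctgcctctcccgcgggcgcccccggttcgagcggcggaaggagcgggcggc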

How the data were processed

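Per the labels and the study's methods, the authors pseudoaligned the reads with kallisto (mm10, as their processing notes name it), summed them per gene and deposited signal normalized with DESeq2. Only 42.5 to 44.6% of values above 0 were whole multiples (within 0.01) of a library's smallest common step, so no count test was run, and that step, taken as 1 read, gave approximate depths. A level of 3 reads lay between 1.39 and 5.36. Testing covered the 17812 genes averaging 10 or more and used limma 3.58.1 in R 4.3.3 on log2(value + 1) with an intensity trend and Benjamini-Hochberg adjusted two-sided p-values, and the procedure was tested on simulated data. Members and lists were chosen with earlier results of these data known. Named genes are the 9, up to 6 called genes per pathway list by size of the fold change, all genes of 2 short lists, each marker list's most abundant gene and genes at 0, and up to 2 of the most similar profiles. Some items are withheld and not reported here. Positions, transcript lengths and shared 31-base words came from GENCODE M21 and promoters from RefSeq. Alternatives covered pseudocount, filter, scaling, variance prior, library weights, a block of adjacent library numbers and leaving out each library.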

Additional observations from a re-analysis of the deposited data

How the results depend on the processing

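Each of the 9 genes was refitted under 16 alternatives. Dusp5 and Spred1 were called in all 16, Dusp6 in 15 and Dusp8 in 13, and Dusp4, Spred2 and Mapk3 in 0. Spry1 and Spry2 were called in 2 each, with library weights and without Sample_2043. The number of the 9 called ranged from 3 to 6, also when each library was left out. Mapk3 changed sign, always near 0 and never called: its log2 fold change was 0.12 after quantile normalization, 0.17 with equal totals outside the mitochondrial genome, and 0.10, 0.01 and 0.05 without Sample_2041, Sample_2040 and Sample_2044, with the lowest value, -0.0859, without Sample_2047. Those 2 scalings shifted the median of all tested genes by -0.14 and 0.17.

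Over all tested genes, 3628 were called. A minimum mean of 50 gave 2413, with fewer genes tested (10208), and leaving out a library gave 2771 to 3869. The other alternatives gave 3365 to 3985. Of the pathway lists, 48 genes were called, and 39 to 49 under the alternatives, with 41 to 47 when a library was left out.

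The labels pair no libraries and the populations share no number, so the main fit was unpaired. A fit with adjacent numbers as a block, a pairing that no label states, gave 3610 calls and changed none of the 9. Depth limits the lowest values: Spry1 and Spry2 rest on about 10 and 11 reads in their lowest library and Dusp8 on about 10.7, so that their low values carry the largest counting error.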
